A study of Mus musculus with 6 samples.

Results

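The genes described here are 38 interferon-inducible genes of the mouse, out of 18444 genes listed in liver libraries of 2 models of liver injury. They were found by gene symbol, and all 38 were listed in all 6 libraries. By role they comprised 14 GTPases known for their induction by interferon gamma, 17 effectors known for their induction by type I interferon, and 7 regulators, sensors and a peptide transporter. This grouping is the textbook one, and most of the genes can answer to either interferon. Liver RNA of male C57BL/6 mice (C57BL/6J in the study's methods), with an age of 6 to 8 weeks in the sample descriptions, was sequenced as 1 library per condition. The diet model has a control on standard diet (SD, labelled as a chow diet control), mice on a high-fat diet (HFD, labelled NASH, nonalcoholic steatohepatitis) and mice on the same diet given JT003. The fibrosis model has mice given corn oil, mice given carbon tetrachloride (CCl4), a hepatotoxin that causes fibrosis, and CCl4 mice given JT003. JT003 is a peptide agonist of both adiponectin receptors, AdipoR1 and AdipoR2. By the study's methods the HFD was fed for 16 weeks with JT003 for 4 weeks, CCl4 was injected every 3 days for 6 weeks with JT003 for 3 weeks, and all mice were fasted for 8 hours before death. The diet alone lasted longer than the stated age, so 6 to 8 weeks cannot be the age at death in the diet model. Age at death is not stated, and it cannot be told apart from the model in comparisons between the models. The study also had a HFD combined with a methionine- and choline-deficient diet, with controls of its own, and its text names SD, HFD and HFD plus JT003 as the diet groups that were sequenced. Groups had 6 mice, and it is not stated how many of them contributed RNA to a library. There are therefore no replicates of any condition, and every test below compares 2 libraries, not 2 conditions.

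Interferons are cytokines that cells release when they detect viral nucleic acid or when lymphocytes are activated. Type I interferons bind the receptor made of Ifnar1 and Ifnar2 and activate a complex that contains Stat2 and Irf9 and binds the interferon-stimulated response element (ISRE) in target promoters. Interferon gamma, made mainly by T and NK cells, binds the receptor made of Ifngr1 and Ifngr2 and acts through the gamma-activated sequence (GAS). In the liver, hepatocytes, Kupffer cells and endothelial cells all carry these receptors.

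The libraries were of similar depth, with 19374236 to 20184557 expected counts, the number of reads estimated for each gene. Summed over 7 markers, hepatocyte transcripts stood at 49546 to 60457 FPKM (fragments relative to transcript length and library size) in every library, as liver tissue has them. The corn oil library stood apart. All 10 macrophage and Kupffer cell markers were called lower there than in the SD library, with a median log2 ratio of -2.11, and Adgre1, which encodes the macrophage marker F4/80, had 24 counts against 290. The ratios between CCl4 and corn oil are therefore given also against SD where the call of a member differs. In bulk liver RNA, fewer cells of a type and less RNA per cell cannot be told apart.

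The NCBI gene identifiers in the data are 14469 for Gbp2, 55932 for Gbp3, 17472 for Gbp4, 229898 for Gbp5, 100702 for Gbp6, 229900 for Gbp7, 76074 for Gbp8, 236573 for Gbp9, 626578 for Gbp10 and 634650 for Gbp11. These 10 genes encode guanylate-binding proteins, GTPases that assemble on the vacuoles of intracellular pathogens and on cytosolic bacteria. In RefSeq (GRCm38.p6) Gbp5, Gbp7, Gbp3 and Gbp2 lie on chromosome 3, and Gbp8, Gbp9, Gbp4, Gbp10, Gbp6 and Gbp11 on chromosome 5. The other 4 GTPases are the immunity-related GTPases Irgm1, Irgm2, Igtp and Iigp1, of which Irgm1, Irgm2 and Igtp restrain the family's effectors at host membranes and Iigp1 is itself an effector.

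Levels per transcript length differed widely between the families. The GBP genes were low, from 0.17 FPKM for Gbp10 in the CCl4 library to 10.3 FPKM for Gbp6 in the HFD plus JT003 library. Iigp1 was the most abundant GTPase, at 58.8 FPKM in SD, 144 in HFD and 163 with JT003 in the diet model, and at 62.6 FPKM in corn oil, 66.5 in CCl4 and 101 with JT003 in the CCl4 model. All 14 GTPases had a higher FPKM in HFD than in SD, and 13 of the 14 had a log2 ratio above 0 between HFD plus JT003 and HFD. Among the effectors Ifi27 was the most abundant, at 89.8, 86.1, 105, 66.4, 115 and 88.0 FPKM in the same order of libraries. The other effectors lay between 0.35 FPKM, for Ifit2 in corn oil, and 23.2 FPKM, for Ifi35 in CCl4 plus JT003. The median of the 17 effectors was 2.53 FPKM in SD, 6.55 in HFD and 3.78 with JT003, whereas the median of the 14 GTPases was 0.895, 5.12 and 6.44 FPKM.

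**Figure D1:**
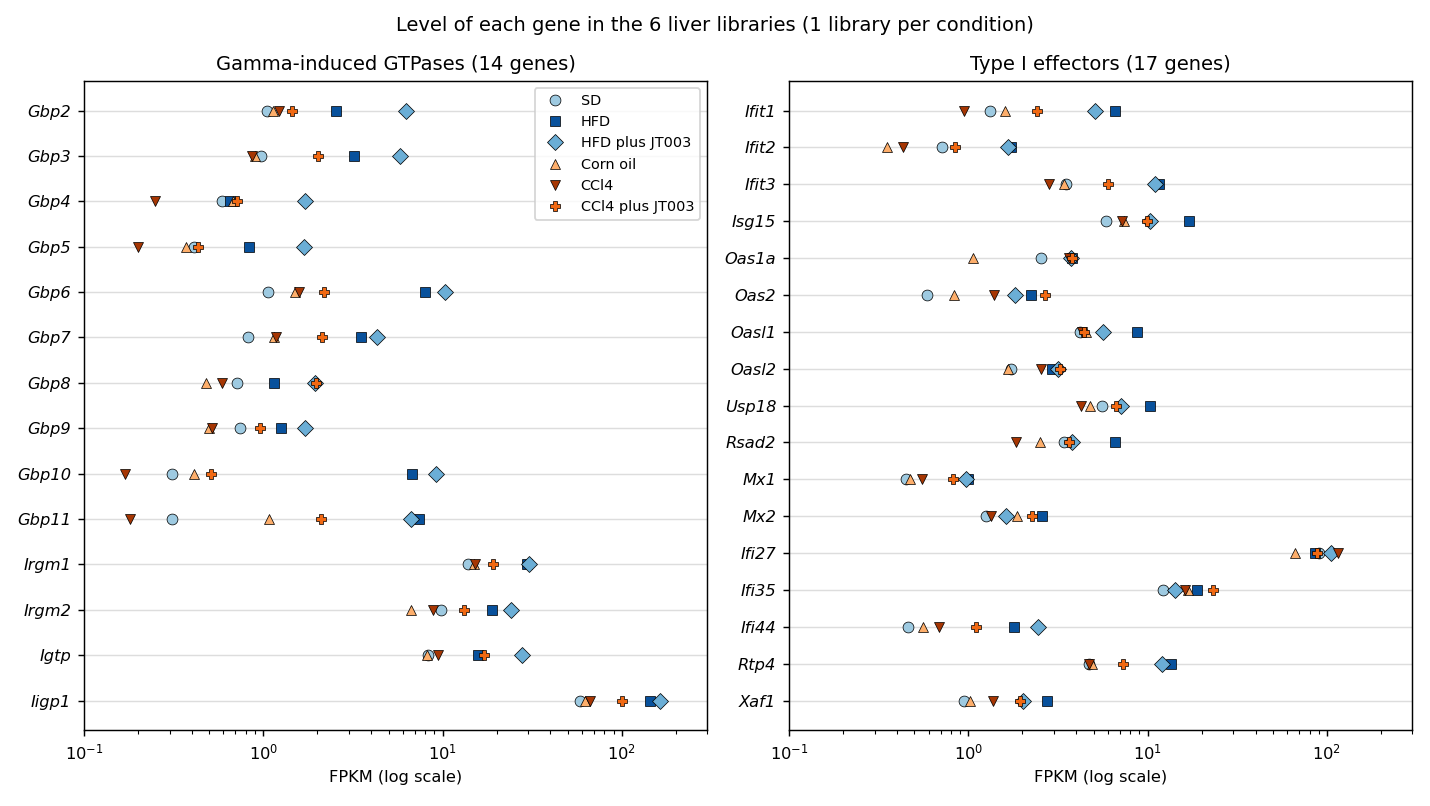
Level of each of the 14 gamma-induced GTPases (left) and 17 type I effectors (right) in FPKM on a log axis, with 1 symbol per library and no replicates. Gbp6, Gbp10 and Gbp11 lie at 6.65 FPKM or more in both HFD libraries and at 2.18 FPKM or less in the other 4 libraries, and the effectors Isg15, Oasl1, Usp18, Rsad2 and Mx2 are highest in the HFD library.

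Promoter sequences were searched for the letters through which interferon-activated factors are known to bind. RefSeq promoters (GRCm38.p6) were matched for 24 of the 38 members, and the 250 bases before the start were searched on both strands for the ISRE, as GAAA repeated on the same strand with any 2 bases between, and for the GAS, as TTCNNNGAA. These letters occur in 2.98% and 7.02% of all 32851 promoters. The ISRE was found in all 7 GTPases with a promoter (Gbp2, Gbp3, Gbp5, Gbp7, Irgm1, Irgm2 and Igtp), and the GAS in 4 of them (Gbp5, Gbp7, Irgm2 and Igtp). Of 11 effectors with a promoter, 5 held the ISRE and 2 the GAS. Of the 6 regulators, sensors and Tap1 with a promoter, 1 held the ISRE (Stat2) and 1 the GAS (Irf1). A match describes these letters only, and none says only that they are not in this window. The last 120 bases before the start are shown for 6 GTPases and, for contrast, for the effectors Isg15 and Ifit1, with ISRE and GAS letters in capitals and each sequence on the strand of its gene.
Gbp2, chr3:142620543-142620662, plus strand, ISRE: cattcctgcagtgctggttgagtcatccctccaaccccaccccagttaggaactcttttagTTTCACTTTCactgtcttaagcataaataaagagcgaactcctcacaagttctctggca
Gbp3, chr3:142559924-142560043, plus strand, overlapping ISREs: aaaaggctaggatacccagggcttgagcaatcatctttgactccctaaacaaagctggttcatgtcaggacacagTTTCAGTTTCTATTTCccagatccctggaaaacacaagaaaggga
Gbp7, chr3:142530216-142530335, plus strand, GAS, GAS, ISRE: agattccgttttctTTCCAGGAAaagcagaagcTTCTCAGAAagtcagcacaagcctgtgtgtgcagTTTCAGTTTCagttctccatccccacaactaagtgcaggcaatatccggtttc
Irgm1, chr11:48871421-48871540, minus strand, overlapping ISREs: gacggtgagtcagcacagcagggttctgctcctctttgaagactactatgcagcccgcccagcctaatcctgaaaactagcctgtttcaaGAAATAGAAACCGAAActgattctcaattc
Igtp, chr11:58199436-58199555, plus strand, GAS, ISRE: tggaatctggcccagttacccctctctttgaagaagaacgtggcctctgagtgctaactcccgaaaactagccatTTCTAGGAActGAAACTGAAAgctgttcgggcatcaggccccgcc
Irgm2, chr11:58214857-58214976, plus strand, GAS, ISRE: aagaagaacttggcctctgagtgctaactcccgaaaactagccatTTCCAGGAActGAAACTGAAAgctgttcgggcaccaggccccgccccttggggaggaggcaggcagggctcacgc
Isg15, chr4:156200819-156200938, minus strand, overlapping ISREs: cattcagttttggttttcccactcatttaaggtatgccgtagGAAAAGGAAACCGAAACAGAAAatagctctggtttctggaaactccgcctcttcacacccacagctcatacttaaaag
Ifit1, chr19:34640769-34640888, plus strand, ISRE, ISRE: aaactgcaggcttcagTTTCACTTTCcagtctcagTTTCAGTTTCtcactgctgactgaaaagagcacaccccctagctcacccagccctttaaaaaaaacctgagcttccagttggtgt

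In Igtp and Irgm2 the GAS and the ISRE stood next to each other in a nearly identical stretch, with the GAS starting 45 and 75 bases before the start. In Gbp2 the ISRE started 59 bases before the start and in Gbp7 53 bases before it. The Ifit1 promoter held separate ISREs 104 and 85 bases before the start, and Isg15 overlapping ones at 78, 72 and 66 bases.

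**Figure D2:**
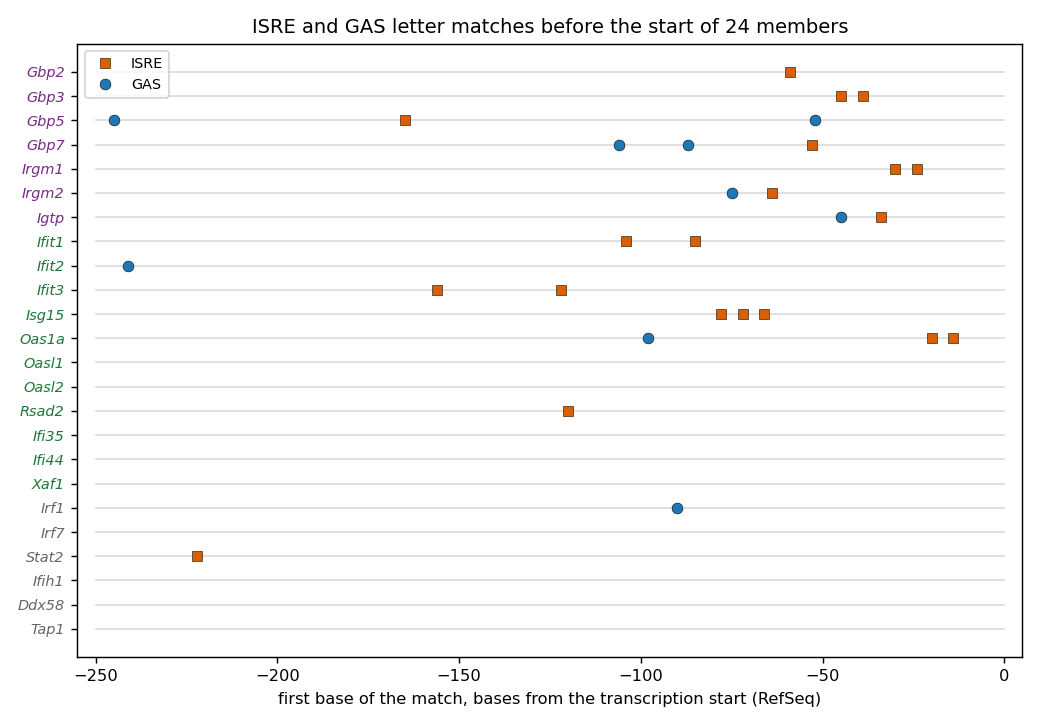
Position of ISRE (squares) and GAS (circles) letter matches in the 250 bases before the RefSeq start of the 24 members with a promoter, as bases from the start. All 7 GTPases (purple names) carry an ISRE, 5 of 11 effectors (green names) do, and Irf1 and Stat2 are the regulators with a match.

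HFD against SD asked how the diet model differed from its control. A gene is called higher or lower where an exact binomial test of the 2 libraries gave an adjusted p-value below 0.001 and the log2 ratio was 1 or more in size. Of the 38 members, 16 were called higher in HFD and 0 lower, where 2.96% of the 16973 genes tested were called higher and 2.49% lower. The median log2 ratio was 1.04 for the GTPases, 0.99 for the effectors and 0.48 for the 7 regulators, sensors and Tap1, beside 0.00 for all genes tested. The 95% counting interval, which covers counting error only, lay wholly above 0 for 34 members, as it did for 19% of all genes tested. All 38 members had at least 50 counts in the higher library, and among the 10948 genes that did, 4.11% were called higher and 26.1% had such an interval.

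The largest ratios were those of GBP genes of the chromosome 5 cluster. Gbp11 had 17 counts in SD, 397 in HFD and 360 once JT003 was added, and Gbp10 had 22, 475 and 651. Their log2 ratios between HFD and SD were 4.31 (95% interval 3.76 to 5.25) and 4.23 (3.73 to 5.03). Gbp6 had 93, 689 and 893 counts, with a log2 ratio of 2.77 (2.48 to 3.13). These near copies share sequence. In annotated mouse transcripts, 90.2% of the 50-base windows of Gbp6, 82.5% of those of Gbp10 and 34.5% of those of Gbp11 also occur in another gene, so the split of reads among them is uncertain. Summed over Gbp6, Gbp10 and Gbp11, which removes that split among these genes but not reads shared with other genes, the counts were 132 in SD and 1561 in HFD, a log2 ratio of 3.45 (3.22 to 3.74). Not every neighbour in this cluster was called. Gbp4 had 54 and 58 counts in SD and HFD (log2 ratio 0.01, -0.55 to 0.57), Gbp8 had 35 and 56 (0.56, -0.05 to 1.24) and Gbp9 had 55 and 91 (0.62, 0.14 to 1.15).

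On chromosome 3, Gbp7 had 94 counts in SD, 393 in HFD and 488 once JT003 was added (0.82, 3.50 and 4.33 FPKM), with a log2 ratio of 1.95 (1.64 to 2.31) between HFD and SD. Gbp3 had 53, 166 and 304 counts, with a log2 ratio of 1.52 (1.10 to 2.03), and Gbp2 had 53, 124 and 307, with 1.11 (0.66 to 1.63). Thus 3 of the 4 GBP members on this chromosome were called higher, and the fourth, Gbp5, had 25, 50 and 102 counts and a log2 ratio of 0.86 that did not pass. Among the immunity-related GTPases, Iigp1 had 3646, 8659 and 9882 counts and rose by 1.16 on the log2 scale (1.10 to 1.21). Irgm1, with 623, 1313 and 1355 counts, had a log2 ratio of 0.98 (0.85 to 1.12), just under the threshold. Irgm2 and Igtp had log2 ratios of 0.81 and 0.80.

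Of the 17 type I effectors, 8 were called higher in HFD. Ifit1, which binds RNA that lacks the host cap methylation, had 71 counts in SD, 345 in HFD and 270 once JT003 was added (1.32, 6.58 and 5.11 FPKM) and the largest ratio among the effectors, 2.16 (1.82 to 2.58). Its relatives Ifit3 (141, 459 and 435 counts) and Ifit2 (57, 136 and 132 counts) had log2 ratios of 1.60 (1.34 to 1.89) and 1.14 (0.71 to 1.64). Ifit3 shares 51.2% of its windows with Ifit3b, and summed over both the log2 ratio was 1.53 (1.29 to 1.78). Ifi44, with 27, 104 and 143 counts, rose by 1.78 (1.23 to 2.52). Oas2, an oligoadenylate synthetase of the RNase L pathway, had 47, 174 and 141 counts and a log2 ratio of 1.76 (1.32 to 2.29). Isg15, a ubiquitin-like protein conjugated to other proteins, had 87, 247 and 150 counts and a log2 ratio of 1.39 (1.06 to 1.78). All these intervals lie above 0, which adds nothing to the calls, as both rest on the same counts. Rtp4 (149, 419 and 374 counts) and Xaf1 (50, 141 and 105 counts) had log2 ratios of 1.39 (1.13 to 1.68) and 1.37 (0.93 to 1.90).

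The 9 effectors that were not called were Oas1a, Oasl1, Oasl2, Usp18, Rsad2, Mx1, Mx2, Ifi27 and Ifi35. Of these, 8 had log2 ratios between 0.45 (Oas1a) and 0.99 (Mx1, at 25 and 55 counts), and Ifi27 had -0.18 (-0.28 to -0.08). Rsad2, which encodes the antiviral enzyme viperin, had 264 and 495 counts and a log2 ratio of 0.81 (0.60 to 1.04). Among the sensors, Ifih1 (MDA5), a helicase that detects long double-stranded RNA, rose from 283 to 719 counts (2.51 to 6.50 FPKM), a log2 ratio of 1.25 (1.05 to 1.46). Ddx58 (RIG-I) had a log2 ratio of 0.90 and Zbp1, a sensor of Z-form nucleic acid, 0.21. The transcription factors Irf1, Irf7 and Stat2 had 0.48, 0.45 and 0.51, and Tap1, which carries peptides to MHC class I, had 0.45.

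**Figure D3:**
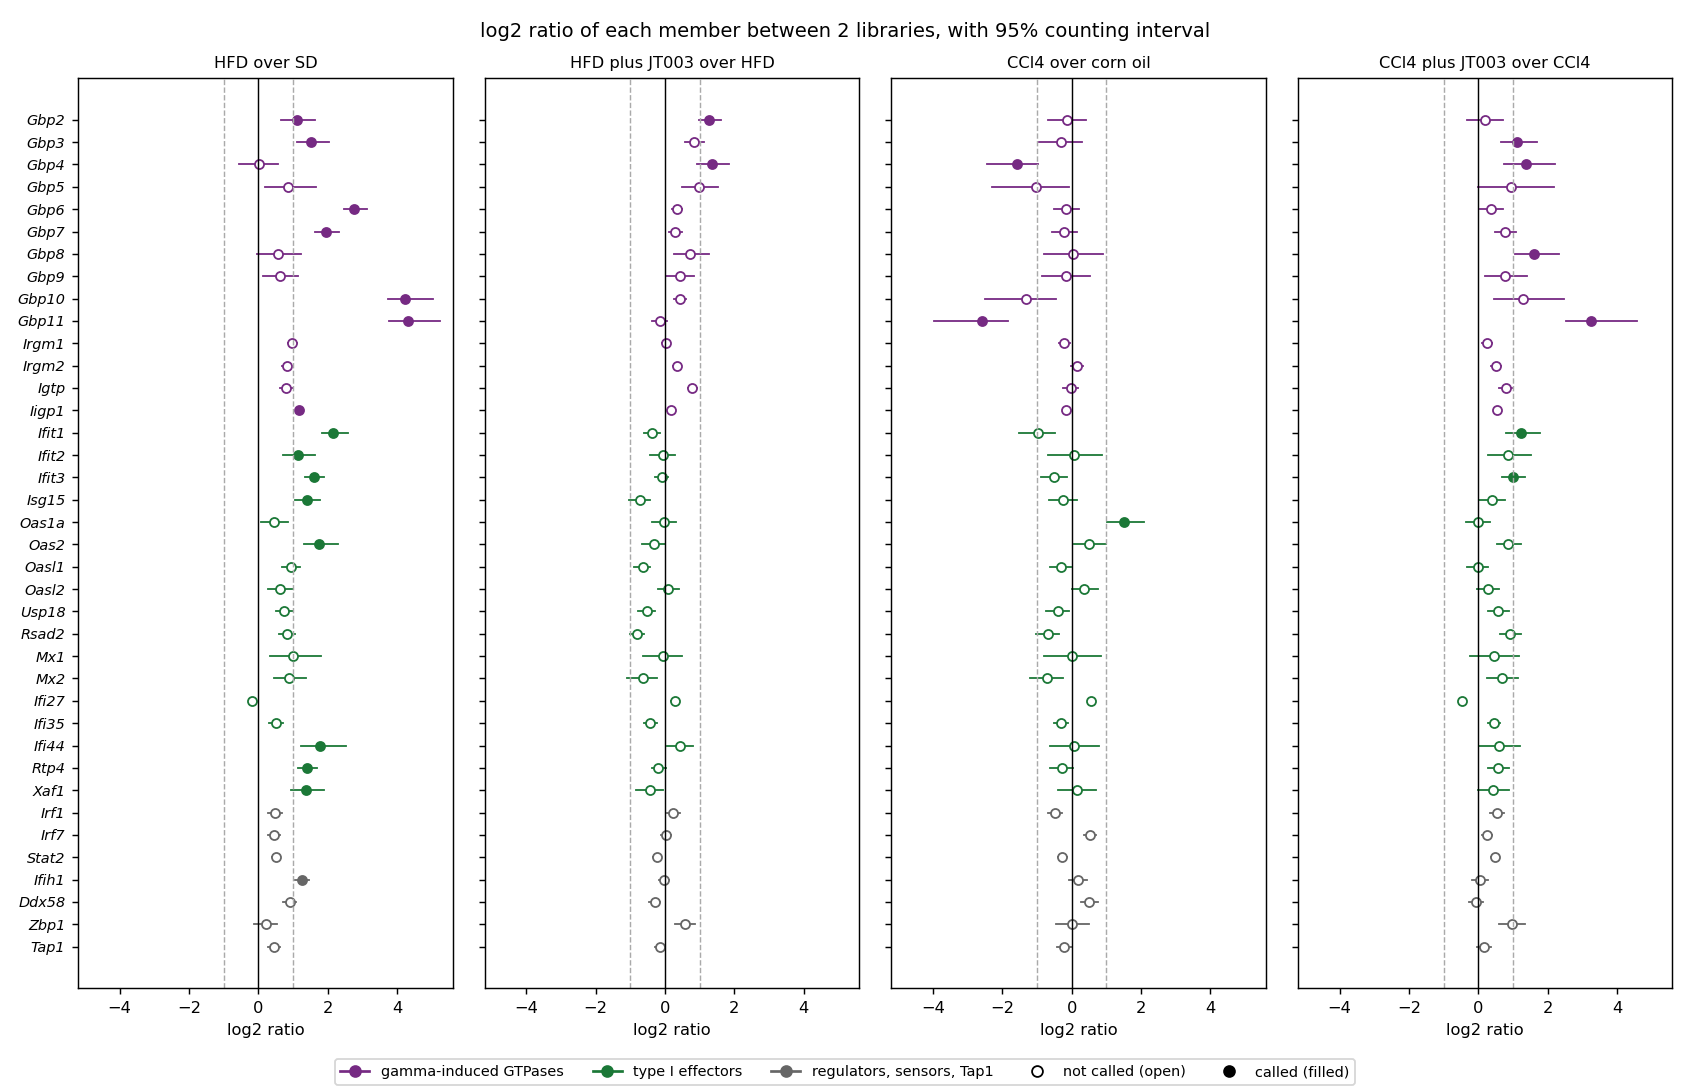
log2 ratio of each of the 38 members between 2 libraries in the 4 comparisons, with 95% counting intervals as lines (dashed lines mark a log2 ratio of -1 and 1). Filled points are called, 16 in HFD over SD, 2 in HFD plus JT003 over HFD, 3 in CCl4 over corn oil and 6 in CCl4 plus JT003 over CCl4.

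HFD plus JT003 against HFD asked how JT003 changed the diet model. This comparison shares the HFD library with the one above, so a chance deviation of that library enters both with opposite sign. Here the role groups lay on different sides of 0. The median log2 ratio was 0.42 for the GTPases (range -0.16 to 1.35) and -0.32 for the effectors (range -0.80 to 0.43), beside -0.01 for all genes tested. Of the members, 2 were called higher and 0 lower, where 0.767% and 0.901% of 17090 genes were called higher and lower. Of the 14 GTPases, 12 had a counting interval wholly above 0 and 0 wholly below, and of the 17 effectors 2 lay wholly above and 8 wholly below, beside 16.3% and 16.1% of all genes tested. Every member reached 50 counts in HFD or HFD plus JT003. For the 11001 genes that did so, these shares were 23.1% and 23.2%.

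Both genes called were GBP genes. Gbp4, at 54 counts in SD, 58 in HFD and 153 once JT003 was added (0.59, 0.65 and 1.70 FPKM), had a log2 ratio of 1.35 (0.93 to 1.84), so that it rose with JT003 and did not pass with the diet. Summed with Gbp8 and Gbp9, with which it shares some sequence, the log2 ratio was 0.83 (0.59 to 1.09), under the threshold. Gbp2 rose from 124 to 307 counts (2.53 to 6.22 FPKM), a log2 ratio of 1.27 (0.98 to 1.60) on top of its ratio with the diet. Just under the threshold were Gbp5 at 0.98 (0.50 to 1.52), Gbp3 at 0.84 (0.57 to 1.13) and Igtp at 0.79 (0.65 to 0.93). The GBP genes with the largest ratios to SD had small ones here, with 0.43 for Gbp10, 0.35 for Gbp6 and -0.16 (-0.37 to 0.05) for Gbp11. Irgm1 had 1313 and 1355 counts, a log2 ratio of 0.02 (-0.09 to 0.13), and Iigp1 0.17 (0.13 to 0.21).

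No effector passed the threshold in either direction. The lowest ratios were those of Rsad2, at 495 counts in HFD and 287 in HFD plus JT003 (-0.80, -1.02 to -0.60), and Isg15, at 247 and 150 counts (-0.73, -1.04 to -0.44). Oasl1, which restrains translation of Irf7, had 369 and 238 counts (-0.65), and Mx2, a dynamin-like antiviral GTPase, 123 and 79 (-0.65). Usp18, which removes Isg15 from proteins and dampens signalling at Ifnar2, had 360 and 252 counts (-0.53). Rsad2 in HFD plus JT003 stood near its SD count of 264, with a log2 ratio of 0.01 (-0.24 to 0.25) against SD. The effectors with positive ratios were Ifi44 (0.43), Ifi27 (0.28) and Oasl2 (0.09). Of the other members, Zbp1 had 0.57, Irf1 0.24 and Ddx58 -0.29.

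Between HFD plus JT003 and SD, 21 members were called higher and 0 lower, where 3.2% and 2.78% of 17012 genes were. Gbp2 and Gbp3 had log2 ratios of 2.38 and 2.36 there, Gbp5 1.84, Igtp 1.59 and Gbp4 1.36, while Isg15 had 0.66 and Usp18 0.22, which did not pass.

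**Figure D4:**
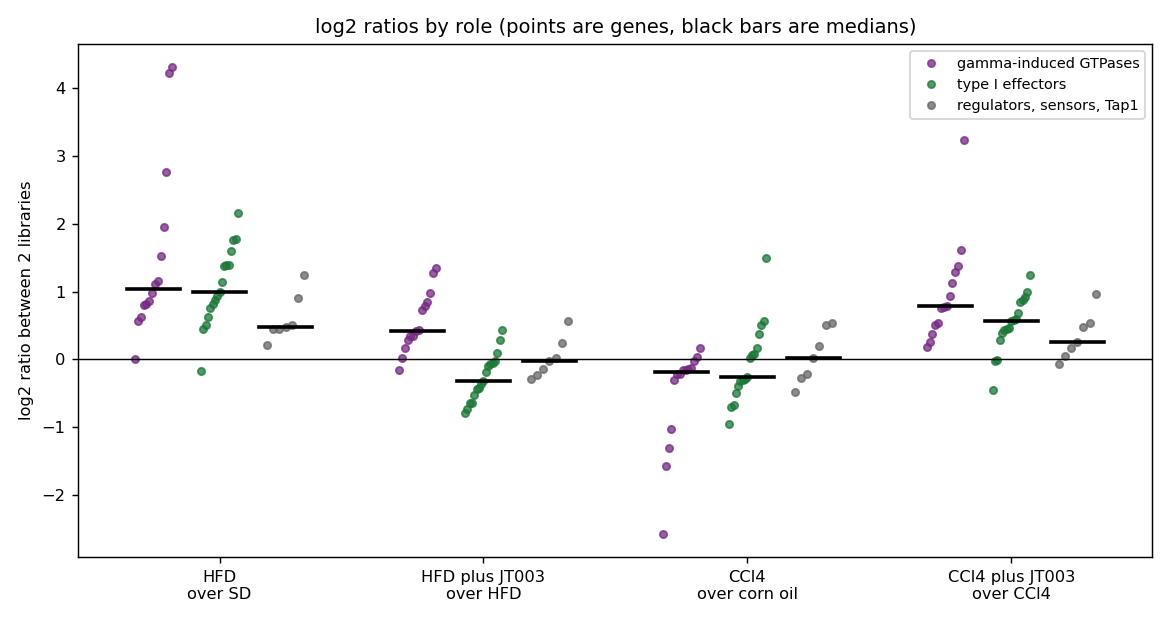
log2 ratios of the members by role in the 4 comparisons, where each point is 1 gene and black bars are medians. With JT003 in the diet model the medians of the GTPases and the effectors are 0.42 and -0.32, and with JT003 in the CCl4 model they are 0.78 and 0.56.

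CCl4 against corn oil asked the same of the fibrosis model. The broad difference seen between HFD and SD was not found here. The median log2 ratio was -0.19 for the GTPases and -0.26 for the effectors, beside 0.00 for all genes tested. With total reads in place of TMM, the trimmed-mean library scaling used throughout, these medians were 0.04, -0.03 and 0.23. Of the 38 members, 1 was called higher and 2 lower, where 4.8% and 2.46% of 17234 genes were called higher and lower. The share of members called is thus close to that of all genes.

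Gbp11 had 58 counts in corn oil, 10 with CCl4 and 112 with CCl4 plus JT003 (1.08, 0.18 and 2.10 FPKM), a log2 ratio of -2.58 (-3.96 to -1.84) between CCl4 and corn oil. Gbp4 had 60, 23 and 63 counts (0.68, 0.25 and 0.71 FPKM) and a log2 ratio of -1.58 (-2.43 to -0.96). Oas1a had 39, 139 and 139 counts (1.06, 3.65 and 3.78 FPKM) and a log2 ratio of 1.50 (1.02 to 2.10). Against each other, CCl4 was the lowest of the 3 libraries for both GBP genes, and corn oil the lowest for Oas1a. Oas1a was also lower in corn oil than in SD, where it had 97 counts (log2 ratio -1.13, -1.74 to -0.61), and it shares 57.6% of its windows with Oas1g. Summed over Oas1a, Oas1g and Oas1b the counts were 101 and 233, a log2 ratio of 0.91 (0.57 to 1.27) between CCl4 and corn oil that is under the threshold. Sums over GBP genes that share sequence were under it as well. However, 34.5% of the windows of Gbp11 and 11.9% of those of Gbp4 occur in another gene, so these sums also add reads that can be told apart. Gbp6, Gbp10 and Gbp11 together had 216 and 164 counts (-0.68, -0.99 to -0.39), and Gbp4, Gbp8 and Gbp9 had 119 and 91 (-0.66, -1.09 to -0.27). Gbp11 was called higher in corn oil than in SD (1.80, 1.12 to 2.79). These were the members called between corn oil and SD, where 2.24% and 3.27% of 17018 genes were called higher and lower. With the SD library as the control in place of corn oil, Gbp4 was still called (-1.32, -2.17 to -0.67), while Gbp11 (-0.81, -2.22 to 0.28) and Oas1a (0.34, -0.03 to 0.74) were not. Instead Oas2, with 47 counts in SD and 110 in CCl4, was called higher (1.03, 0.55 to 1.58), and Rsad2, with 264 and 142 counts, lower (-1.05, -1.37 to -0.76).

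Gbp6 (129 and 141 counts), Gbp2 (55 and 61) and Gbp7 (128 and 135) had log2 ratios of -0.16, -0.13 and -0.21. Ifit1 had 83 and 51 counts and a log2 ratio of -0.96 (-1.52 to -0.47), the lowest among the effectors. Ifi27 had 1245 and 2253 counts and a log2 ratio of 0.57 (0.47 to 0.67), Irf7 0.53 and Ddx58 0.51. Irf1 had -0.48 (-0.68 to -0.28).

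CCl4 plus JT003 against CCl4, which shares the CCl4 library with the comparison above, gave ratios above 0 for 34 of the 38 members. The median log2 ratio was 0.78 for the GTPases and 0.56 for the effectors, beside 0.00 for all genes tested. Called higher were 6 members and lower 0, where 1.91% and 2.55% of 17393 genes were. Of the 14 GTPases, 13 had an interval wholly above 0, and of the 17 effectors 11 did, beside 19.4% of all genes tested. Among the members Ifi27 alone lay wholly below 0, as did 22.8% of all genes, at -0.46 (-0.55 to -0.37). In this pair 35 members reached 50 counts in CCl4 or CCl4 plus JT003. For the 11257 genes that did so, 26.3% lay wholly above 0 and 33.3% wholly below.

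Gbp11 had the largest ratio, with 10 and 112 counts and 3.24 (2.54 to 4.57) on the log2 scale. Summed with Gbp6 and Gbp10, with which it shares only part of its windows, it had 164 and 332 counts, a log2 ratio of 1.00 (0.73 to 1.29). Gbp8 rose from 29 to 94 counts (0.59 to 1.96 FPKM), a log2 ratio of 1.62 (1.07 to 2.34), and corn oil had 23 counts. Gbp4 rose from 23 to 63 counts, close to the 60 in corn oil, with a log2 ratio of 1.37 (0.73 to 2.20). Gbp3 rose from 46 to 104 counts, where corn oil had 47, by 1.13 on the log2 scale (0.65 to 1.70). Summed over Gbp4, Gbp8 and Gbp9, the counts were 91 and 225, a log2 ratio of 1.28 (0.94 to 1.66). Gbp4 was the only member called higher with JT003 in both models. With the remaining CCl4 counts described below in place of the CCl4 library, it was not called (0.35, -0.12 to 0.83). Log2 ratios with JT003 in the diet and CCl4 models were 0.84 and 1.13 for Gbp3, and 0.98 and 0.94 for Gbp5. Gbp2, which rose with JT003 in the diet model, had 61 and 70 counts here and a log2 ratio of 0.18 (-0.33 to 0.71).

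Among the effectors, Ifit1 had 83, 51 and 124 counts in corn oil, CCl4 and CCl4 plus JT003 (1.60, 0.95 and 2.41 FPKM) and a log2 ratio of 1.24 (0.79 to 1.77) between the last 2 libraries. Ifit3 had 133, 114 and 232 counts and a log2 ratio of 1.00 (0.68 to 1.35), at the threshold. For both genes CCl4 was the lowest and CCl4 plus JT003 the highest library of the model. Rsad2 and Oas2 had log2 ratios of 0.92 and 0.87 and were not called, nor was Zbp1 at 0.96. Oas1a and Oasl1 had -0.01 and -0.02. Against corn oil, CCl4 plus JT003 had 3 members called higher, Gbp8 (1.66), Oas1a (1.49) and Oas2 (1.37), and 0 lower, where 3.29% and 1.77% of 17338 genes were.

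The ratios over the CCl4 library depended on that library. The authors also deposited a column of CCl4 counts that sums to 2.97 times the CCl4 library and appears to pool it with other CCl4 libraries. After subtraction of the CCl4 library, the remaining counts exceeded it for 34 of the 38 members, with a median log2 ratio of 0.48, beside 0.03 for all genes tested, although no member was called at the adjusted p-value of the exact binomial test and the log2 threshold used throughout. Of 17471 genes, 1.45% were called higher and 0.24% lower. Gbp11 had 47 remaining counts (log2 ratio 1.09, 0.18 to 2.33), Gbp4 101 (1.04), Gbp8 121 (0.98) and Rsad2 570 (0.95). With the remaining counts in place of the CCl4 library, 1 member was called higher with JT003 (Gbp11), and the medians were 0.32 for the GTPases and 0.04 for the effectors.

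Of the pathway upstream, 45 genes that are no members were examined. The interferons among them were at the limit of detection. Ifng, Ifna2, Ifna4 and Ifne were not listed in any library, and Ifnb1 had 1 count in HFD, 1 in CCl4 plus JT003 and 0 elsewhere. Of the cytokines that induce interferon gamma or act on the cells that make it, Il18 had 56 to 142 counts (3.28 to 8.45 FPKM) over the 6 libraries, and Il15 had 3, 12 and 22 counts in the diet model and 6, 24 and 34 in the CCl4 model. Neither was called in the 4 comparisons. Against SD both were called higher in HFD plus JT003 (1.20 for Il18 and 2.18 for Il15), and Il15 also in CCl4 plus JT003 against corn oil (1.92). The 4 subunits of the main receptors were abundant and none was called in the 4 comparisons. Ifnar1 had 1043 to 1339 counts and Ifnar2 1240 to 1839 over the 6 libraries. Ifngr1 had 275 to 495 and Ifngr2 426 to 909, both lowest in corn oil. Irf9, the DNA-binding subunit of the type I complex, had 846, 985 and 777 counts in the diet model, with log2 ratios of 0.13 and -0.36 (-0.50 to -0.23).

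Of the 41 pathway genes with reads, 2 were called higher in HFD over SD and 0 lower, a share near the 2.96% of all genes tested and the 4.11% of those with at least 50 counts. They were Ikbke (163 and 503 counts, log2 ratio 1.52), a kinase that activates interferon regulatory factors, and Tlr7 (14 and 50 counts, 1.62), an endosomal receptor for single-stranded RNA. None was called with JT003 in the diet model, beside 0.767% and 0.901% of all genes called higher and lower. In CCl4 over corn oil 0 of 39 were called higher and 1 lower, beside 4.8% and 2.46% of all genes. The gene called lower was Socs3 (-1.09), an inhibitor of cytokine signalling. With JT003 in the CCl4 model 2 of 41 were called higher and 0 lower, beside 1.91% and 2.55% of all genes. They were Socs3 (1.13) and Nlrc5 (324 and 657 counts, 1.00), the activator of MHC class I genes. In the remaining pooled CCl4 counts over the CCl4 library 2 of 39 were called higher and 0 lower, beside 1.45% and 0.24% of all genes.

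Of 44 further interferon-induced genes that are no members, 43 had reads. In HFD over SD 13 were called higher and 0 lower, beside 2.96% of all genes called higher, among them the chemokines Cxcl9 (66 and 204 counts, log2 ratio 1.51) and Cxcl10 (41 and 148, 1.71), which attract T cells, the immunity-related GTPase Ifi47 (1.40) and the immunoproteasome subunit Psmb9 (1.06). The others were Tgtp1 (1.58), Tgtp2 (1.12), Parp14 (1.21), Apol9a (1.41), Apol9b (1.03), Trim30a (1.10), Ifi203 (1.09), Oas1b (1.22) and Ifit3b (1.20). Beside 0.767% and 0.901% of all genes, 3 were called higher and 0 lower with JT003 in the diet model. These were the near-copy GTPase Tgtp1 (125 and 306 counts, 1.26), Gbp2b (41 and 95, 1.15) and Cd274, which encodes PD-L1 (61 and 126, 1.00). Cd274 was also called higher with JT003 in the CCl4 model (21 and 61 counts, 1.44). Summed over Tgtp1 and Tgtp2 the log2 ratio with JT003 in the diet model was 0.93 (0.70 to 1.17), under the threshold. Tgtp1 alone was at 0 in CCl4, and together they had 76 counts with corn oil, 47 with CCl4 and 123 with CCl4 plus JT003, with log2 ratios of -0.95 (-1.54 to -0.44) and 1.34 (0.88 to 1.89).

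In CCl4 over corn oil 4 of the 43 genes were called higher and 1 lower, beside 4.8% and 2.46% of all genes. Higher were Ly6e (2147 and 11665 counts, log2 ratio 2.15), Bst2 (1.08), Ifi27l2a (1.17) and Ifi27l2b (118 and 1458 counts, 3.32), and lower was Tgtp1. With JT003 in the CCl4 model 6 were called higher and 1 lower, beside 1.91% and 2.55% of all genes. Higher were Tgtp1, Cxcl10 (1.19), Trim30a (1.04), Ifi204 (1.01), Ifit3b (1.55) and Cd274, and lower was Ifi27l2b (-1.15). In the remaining pooled CCl4 counts over the CCl4 library 5 of the 43 were called higher and 0 lower, beside 1.45% and 0.24% of all genes. The median log2 ratio of the 43 was 0.23 there and the largest 6.08. Ratios over the CCl4 library, those with JT003 included, thus depend on that library for these genes too.

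Markers of other cell types moved with some of these results. The 11 T and NK cell markers summed to 5.84 FPKM in SD, 4.14 in HFD and 7.49 with JT003, and to 4.58, 2.3 and 7.71 FPKM in corn oil, CCl4 and CCl4 plus JT003, with Ncr1 at 0 in corn oil and Cd3e at 0 in CCl4. Their median log2 ratio was 0.63 with JT003 in the diet model, with 0 of 11 called, and 0.99 in the CCl4 model, with 2 called higher, Gzma (1 and 19 counts) and Ccl5 (11 and 44 counts). Gzma (1 and 30 counts) and Ccl5 (11 and 99 counts) were also called higher in the remaining pooled CCl4 counts than in the CCl4 library. So was Cd8a (5 and 51 counts), while Prf1 had a log2 ratio of -0.76 there. The calls of Gzma and Ccl5 with JT003 thus depend on that library. Between HFD and SD, where most members were higher, the list had a median of -0.39, with 0 of 11 called higher and 1 lower, the perforin gene Prf1 (27 and 2 counts, -2.92). The 6 stellate cell and myofibroblast markers summed to 66.7 FPKM in SD and 99.2 in HFD (median log2 ratio 0.37), with Lrat (1.34) and Col1a1 (2.23) called higher. The 6 neutrophil markers summed to 8.87 and 12.7 FPKM (median 0.52) with none called, and of the sinusoidal endothelial markers Lyve1 was called higher (1.09). The 10 macrophage and Kupffer cell markers summed to 160, 178 and 236 FPKM in the diet model and 37.8, 121 and 192 FPKM in the CCl4 model, with none at 0. With JT003 in the CCl4 model they did not go one way, as Marco (161 and 1252 counts, 2.93) and Timd4 (1.53) were called higher while Cd68 and Adgre1 had -0.60 and -0.35. Timd4 was also called higher in the remaining pooled CCl4 counts than in the CCl4 library (139 and 18 counts, 1.83), as was Marco (2008 and 161 counts). In CCl4 over corn oil 7 of the 10 macrophage and Kupffer cell markers were called higher. The corn oil library was low in all of them, however, and their sum in CCl4 (121 FPKM) was below that in SD (160 FPKM). The GTPases and effectors had medians of -0.19 and -0.26 in that comparison. Sinusoidal endothelial markers summed to 63.6, 68.1 and 80.7 FPKM in the diet model and 40.7, 25.3 and 40 FPKM in the CCl4 model. Of these markers Kdr (-1.34) and Oit3 (-1.50) were called lower in CCl4 over corn oil. The 4 plasmacytoid dendritic cell markers, a cell type that makes much type I interferon, summed to 0.3 to 1.16 FPKM, with Klk1 at 0 in SD, HFD and HFD plus JT003 and Cox6a2 at 0 in HFD plus JT003 and corn oil. The part of these cell types in the results was not tested.

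**Figure D5:**
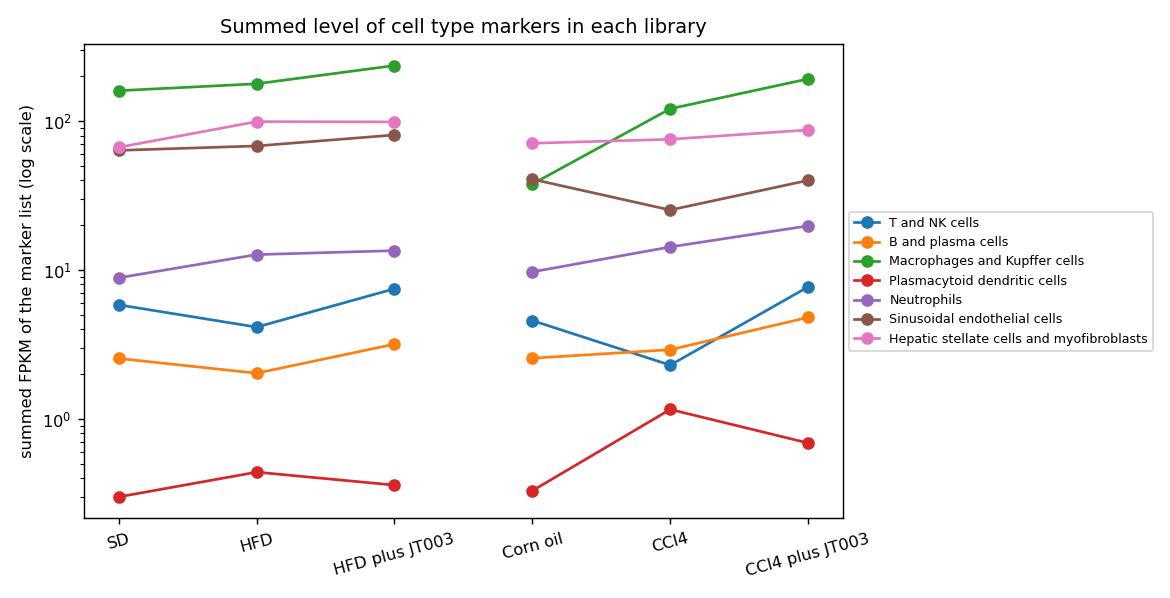
Summed FPKM of the markers of 7 cell types in each of the 6 libraries, on a log axis, with lines joining the libraries of a model. T and NK cell markers go from 4.14 to 7.49 FPKM between HFD and HFD plus JT003 and from 2.3 to 7.71 FPKM between CCl4 and CCl4 plus JT003, and macrophage markers are lowest in corn oil at 37.8 FPKM.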

How the data were processed

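Liver RNA was sequenced on a BGISEQ-500, with 1 library per condition in 6 conditions. Per the labels the submitters used HISAT, Bowtie2 and RSEM and the build mm9, with no versions named. For each library the authors deposited the expected count per gene, an estimate of its reads without normalization, and the FPKM, the same estimate divided by transcript length and by the reads of the library. Genes without reads are not listed and were taken as 0. The members, their roles, the pathway, induced-gene and marker lists and the tests were chosen with earlier results of these data known.

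Expected counts were rounded to whole numbers and scaled by TMM library sizes from edgeR 4.0.16 (R 4.3.3), computed within the 3 libraries of each model, or over all 6 for corn oil against SD. For every gene that had 1 or more reads in a pair of libraries, the counts were compared by an exact binomial test conditional on their sum (two-sided, scipy 1.17.1), and p-values were adjusted over all these genes after Benjamini and Hochberg. A call required an adjusted p-value below 0.001 and a log2 ratio, with a prior count of 2, of 1 or more in size. Each ratio has a 95% Clopper-Pearson interval, and no interval covers the spread between mice. The test was tried on simulated counts. Python 3.11.15, numpy 2.4.6, pandas 2.3.3 and matplotlib 3.10.9 were used. All members are accounted for. Those called in at least 1 of the 4 main comparisons and reaching 50 counts in the higher library, and the most abundant of each role, were named with values, and other members mostly by ranges. Of the pathway and induced-gene lists, the genes called are named, and the receptors and Irf9 always. Markers of other cell types are given by list, with examples. A further gene that this rule names is not reported here. A planned mark for protein identity was replaced by shared 50-base windows of annotated transcripts, chosen after the data were seen. Sequences are from RefSeq (GRCm38.p6). The counts rest on mm9, so no coordinates were taken from them.

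The authors also deposited 4 comparison tables with their fold changes and p-values, which were not used. From 1 table the pooled CCl4 expected counts of the authors were used, and 7 further expression columns were left out.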

Additional observations from a re-analysis of the deposited data

Results flagged for a closer look

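For 24 pairs of a member and a contrast the 2 models gave log2 ratios of opposite sign whose counting intervals both excluded 0. The share of all genes that meet this rule is not given here, so this count has no background beside it and describes the members only. With 1 library per condition, the difference between the models was not tested in any of them. The values below are the log2 ratio in the diet model minus that in the CCl4 model.

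For the injury against its control, the GTPases stood at 6.89 for Gbp11, 5.53 for Gbp10, 1.89 for Gbp5, 1.31 for Iigp1 and 1.19 for Irgm1, all with a ratio above 0 in HFD over SD and below 0 in CCl4 over corn oil. The effectors with this pattern were Ifit1 (3.12), Ifit3 (2.10), Mx2 (1.58), Rsad2 (1.50), Oasl1 (1.25), Usp18 (1.15) and Ifi35 (0.81). Irf1 (0.96), Stat2 (0.77) and Tap1 (0.65) had it too, and the effector Ifi27 (-0.75) had the opposite one. Some of the ratios in CCl4 over corn oil were small, at -0.15 for Iigp1 and -0.21 for both Irgm1 and Tap1. With total reads in place of TMM the median of all genes there was 0.23 in place of 0.00. Then 22 in place of 14 members were above 0, so the sign of such small ratios depends on the scaling.

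For JT003 against the injury, 6 effectors and Stat2 had a ratio below 0 in the diet model and above 0 in the CCl4 model. The differences were -1.72 for Rsad2, -1.61 for Ifit1, -1.33 for Mx2, -1.13 for Isg15, -1.11 for Usp18, -0.88 for Ifi35 and -0.70 for Stat2. Ifi27 had the opposite pattern, with 0.73, and no GTPase was among these genes.

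Many of these pairs rest on the single CCl4 library. With the rest of the authors' pooled CCl4 counts in its place, a comparison added after seeing the data, 7 of the 16 pairs for the injury kept the opposite sign with an interval that excluded 0 (Gbp11, Ifit1, Oasl1, Ifi27, Ifi35, Irf1 and Stat2), 5 had the opposite sign with an interval that included 0, and 4 had the same sign as in the diet model. Those 4 were Rsad2 at 0.26 (0.02 to 0.51), Usp18 at 0.14, Mx2 at 0.06 and Iigp1 at 0.05 in CCl4 over corn oil. For JT003, 4 of 8 pairs kept the pattern (Ifit1, Ifi27, Ifi35 and Stat2). Isg15 (0.15, -0.15 to 0.46) and Usp18 (0.04, -0.20 to 0.27) then had intervals that included 0, and Rsad2 (-0.03) and Mx2 (-0.07) had the same sign as in the diet model.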

How the results depend on the processing

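No paired analysis was possible because each condition has a single library, and for the same reason no replicate could be left out. Over the 4 comparisons 27 calls of members were made. Total reads in place of TMM kept all 27 and added 4, and moved the median log2 ratio of all genes to 0.12 in HFD over SD, 0.23 in CCl4 over corn oil and 0.06 in CCl4 plus JT003 over CCl4. In CCl4 over corn oil 22 in place of 14 members were then above 0. For CCl4 plus JT003 over corn oil, where total reads were added after seeing the data, 8 in place of 3 were called. DESeq2 size factors and TMM over all 6 libraries each lost 1 call. A prior count of 0.5 and a minimum of 10 counts changed no call, and an adjusted p-value under 0.05 added 2. With at least 100 counts, 0 members were called lower in CCl4 over corn oil.

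The calls rest on counting error. When edgeR's exact test was run with biological variation set to a coefficient of 0.2, 4 members were called higher in HFD over SD, 0 in HFD plus JT003 over HFD and 1 in CCl4 plus JT003 over CCl4, while 0 were called higher and 1 lower in CCl4 over corn oil. Of all genes, 179, 19, 165 and 346 were called in either direction in these comparisons, in the same order. With 0.4, 0 members were called in any comparison, while 11 of all genes were in HFD over SD and 59 in CCl4 over corn oil. Without a threshold on the log2 ratio the exact binomial test called 30 higher in HFD over SD, 11 higher and 6 lower in HFD plus JT003 over HFD, 4 higher and 7 lower in CCl4 over corn oil, and 18 higher and 1 lower in CCl4 plus JT003 over CCl4. The share of all genes called without that threshold is not given here, so these counts have no background beside them.

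By log2 of FPKM plus 1, which compresses low genes, 12 of the 27 calls were lost, leaving 1 higher in HFD plus JT003 over HFD, 0 lower in CCl4 over corn oil and 1 higher in CCl4 plus JT003 over CCl4. With the authors' pooled CCl4 counts 1 member was called lower over corn oil and 1 higher with JT003, and the median of the effectors with JT003 was 0.22. The remaining pooled counts, tried only after seeing the data, gave the same numbers of 1 and 1. The effectors then had medians of 0.26 in CCl4 over corn oil, against -0.26, and 0.04 with JT003, and the GTPases 0.32 with JT003.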
